A study of Bos taurus with 16 samples.

Results

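Core histones are the proteins around which DNA is wound, and the 4 entries described here, HIST1H2AC, HIST1H2AK, HIST1H2BB and HIST2H2AA4, are genes for the core histones H2A and H2B. They were taken by name from the 36824 gene entries of a raw count table of cattle (Bos taurus) follicular cells. All 4 held counts in every library and all 4 entered every test. Cumulus cells, which surround the oocyte, and granulosa cells, which line the follicle wall, were each collected from follicles on the ovary that carries the corpus luteum (ipsilateral) and on the opposite ovary (contralateral). That gave 4 groups (cumulus cells of either side and granulosa cells of either side) with 4 libraries each, 16 in all. Libraries are numbered within each group in the order of the samples, and a shared number does not mark a match between groups. Each library was a pool of material from 3 animals, and the cumulus cells came from cumulus-oocyte complexes picked under a stereomicroscope. The labels name no breed, age or hormone treatment. They leave unsaid if one animal gave cells to several groups, and the p-values below measure the spread between pools only.

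Replication-dependent histone genes lie in clusters, lack introns and are switched on in S phase, when new DNA has to be packed. Their main mRNAs end in a stem-loop and not in a poly(A) tail, and the stem-loop is bound by the protein SLBP. Some of these genes also give polyadenylated mRNAs, chiefly in cells that have left the cell cycle or are differentiating. Granulosa cells of a growing follicle divide, and cumulus cells are their relatives nearest to the oocyte. The labels name polyA RNA as the molecule measured, and the SMART-Seq HT kit starts cDNA from poly(A) tails. How much of the stem-loop RNA reached these libraries was not tested. In pooled cells, fewer cells of a type and less RNA per cell cannot be told apart.

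Total counts lay between 10066844 and 21910233 per library. Of the few granulosa and cumulus markers with a named entry, TIMP1 and A2M were lower in cumulus cells (log2 difference -5.29 and -6.15). HYDIN was higher (4.11), and each was past edgeR's threshold. The marker lists were chosen with earlier results of these data known, so these differences are no independent check of the labels. Only 2 of 10 granulosa markers, 1 of 6 cumulus markers, 3 of 13 oocyte markers, 1 of 8 leukocyte markers and 3 of 6 epithelial markers had an entry by name, and theca, luteal, endothelial, fibroblast and erythroid markers had none. PF4, the only gene of the leukocyte list with an entry, stood at up to 0.242 CPM in cumulus and 0.450 to 3.86 CPM in granulosa libraries. Alone it does not measure leukocyte content. The epithelial markers MUC16, CFAP44 and WDR63 summed to 1.005 to 4.87 CPM in cumulus and 0.424 to 75.1 CPM in granulosa libraries. By the sum of the oocyte markers, 3 contralateral libraries stood apart. The summed level of the oocyte markers H1FOO, BCL2L10 and TDRD12 was 203 CPM in contralateral cumulus library 4, 20.3 CPM in contralateral cumulus library 2 and 11.6 CPM in contralateral granulosa library 3, where CPM are counts scaled to a common library size by TMM factors. It ran from 1.84 to 2.88 CPM in ipsilateral cumulus and was 2.77 and 1.52 CPM in the other contralateral cumulus libraries. The remaining granulosa libraries held 0 to 1.52 CPM. In contralateral cumulus library 4 the sum came from H1FOO (91.3 CPM) and BCL2L10 (110 CPM). TDRD12 did not follow: it stood at 1.68 CPM there and 1.79 CPM in contralateral cumulus library 2, against 1.09 to 2.21 CPM in ipsilateral cumulus.

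The check for repeated counts came first, since it decides how many measurements there are. HIST1H2AK and HIST2H2AA4 held the same count in all 16 libraries, from 18 to 161 per library and 1209 in all, so they are 1 measurement under 2 names. In the human nomenclature these names stand for H2A genes of separate clusters, HIST1 and HIST2. The reference gene table (RefSeq, assembly ARS-UCD2.0) holds neither name. It does hold H2AC15, the current human symbol for HIST1H2AK, and the entry for that gene, LOC614970, had 0 to 4 counts in cumulus and 0 to 2 counts in granulosa libraries. Neither HIST1H2AC (1022 counts in all) nor HIST1H2BB (5500 counts) had an exact repeat in the table, or a near repeat within 2% or 2 counts in every library. The 4 entries therefore carry 3 distinct sets of values, and the repeated pair is written HIST2H2AA4/HIST1H2AK below. Such a repeat is not particular to this pair: 2852 entries with counts repeat an earlier entry of the table. Those that passed the filter on low counts are included in the shares over all entries given below.

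The reference gave current symbols to 2 of the 4 entries. HIST1H2AC is H2AC6, an H2A gene, and it overlaps the microRNA gene MIR6531 in the reference, whose reads a library without strand information cannot separate. HIST1H2BB is listed as a synonym of H2BC15, an H2B gene. In human the same old symbol belongs to H2BC3, so human annotation of the old symbol does not carry over to this entry. Neighbours of H2BC15 in the reference are H2BC16 on one side and H2AC15 on the other, and H4C13 lies 5 genes away. The neighbour of H2AC6 beyond MIR6531 is H2BC4. Histone genes of one class are nearly identical in sequence, and how the submitters' counting treated reads that match several of them is not given in the sources used here, so the split of reads between copies is uncertain for all 4 entries.

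HIST1H2BB, the H2B entry, was lower in cumulus than in granulosa cells in every library. It stood at 7.53, 10.8, 10.3 and 9.43 CPM in ipsilateral cumulus and 8.52, 9.45, 7.16 and 7.38 CPM in contralateral cumulus libraries. In granulosa cells it stood at 46.5, 37.2, 59.1 and 16.3 CPM on the ipsilateral and 32.7, 37.5, 30.2 and 11.9 CPM on the contralateral side. The highest cumulus library, at 10.8 CPM, lay below the lowest granulosa library, at 11.9 CPM. Cumulus cells averaged 9.53 ± 1.45 CPM on the ipsilateral and 8.13 ± 1.06 CPM on the contralateral side, and granulosa cells 39.8 ± 18.0 and 28.1 ± 11.2 CPM on the same sides (SD, n = 4 each). In order of level, both granulosa groups stood above both cumulus groups, and within each cell type the sides overlapped.

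By edgeR's quasi-likelihood test, HIST1H2BB had a log2 difference of -1.91 ± 0.25 SE between cumulus and granulosa cells (adjusted p = 7.44e-06), which is 3.76-fold lower in cumulus cells. It kept an adjusted p under the threshold of 0.05 in all 24 alternatives run, with log2 differences from -2.05 to -1.76. The pools also differed in how far they spread. The coefficient of variation was 15.8% over the 8 cumulus libraries and 44.9% over the 8 granulosa libraries. Library 4 of each granulosa group was its lowest, at 16.3 and 11.9 CPM, and without either of them the log2 difference was -2.05 and -2.04. In these libraries TIMP1 and A2M summed to 1723 and 2413 CPM, the lowest sums of their groups. The cumulus marker HYDIN stood at 8.96 and 4.21 CPM there, against 0.325 to 8.34 CPM in the other granulosa libraries. The part of such differences in the level of HIST1H2BB was not tested. The library highest in HIST1H2BB, ipsilateral granulosa library 3 at 59.1 CPM, held 44.4 CPM of the epithelial marker MUC16. The other epithelial markers were not raised there, with CFAP44 at 0 and WDR63 at 0.129 CPM. The part of MUC16-bearing cells in the level was not tested. Without ipsilateral granulosa library 3 the log2 difference was -1.78 (adjusted p = 1.60e-05 by edgeR's quasi-likelihood test).

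HIST1H2AC, the H2AC6 entry, was also lower in cumulus cells. Its CPM were 2.43, 1.91, 2.28 and 2.33 in ipsilateral cumulus and 1.97, 1.36, 0.887 and 3.36 in contralateral cumulus libraries. They were 6.75, 5.04, 6.62 and 9.52 in ipsilateral granulosa and 6.16, 3.07, 4.53 and 3.84 in contralateral granulosa libraries. Only contralateral cumulus library 4, at 3.36 CPM, reached into the granulosa range, where it lay above contralateral granulosa library 2, at 3.07 CPM. Cumulus means were 2.24 ± 0.224 CPM on the ipsilateral and 1.89 ± 1.07 CPM on the contralateral side, and granulosa means 6.98 ± 1.86 and 4.40 ± 1.32 CPM on the same sides (SD, n = 4 each). The order of the means was the same as for HIST1H2BB, and the sides overlapped within each cell type.

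The log2 difference of HIST1H2AC was -1.41 ± 0.26 SE by edgeR's quasi-likelihood test (adjusted p = 2.07e-04), 2.65-fold lower in cumulus cells. It remained under the threshold in all 24 alternatives. With ipsilateral libraries alone, where 44.3% of all entries passed, it was -1.62 ± 0.28 (adjusted p = 0.00115). With contralateral libraries alone, where 47.6% passed, it was -1.19 ± 0.45 (adjusted p = 0.0494). These levels rest on low counts, 14 to 60 per cumulus library and 58 to 206 per granulosa library.

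**Figure D1:**
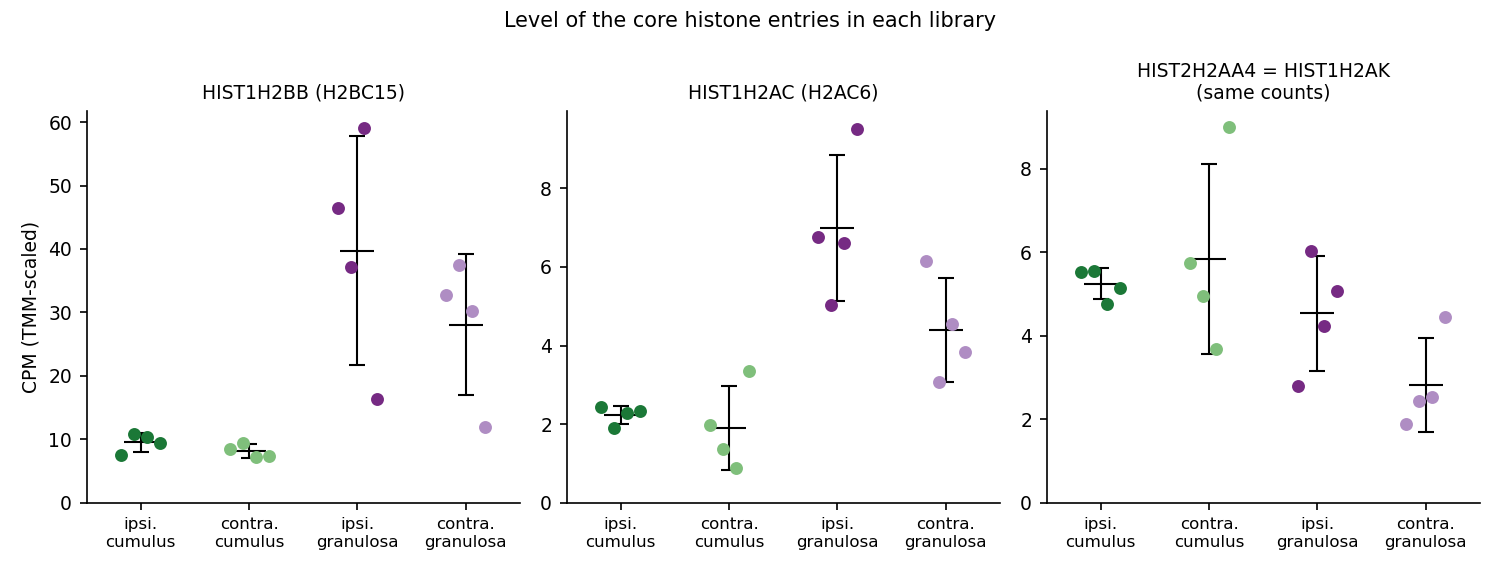
Level of the 3 distinct core histone entries in each library, in TMM-scaled CPM on linear axes that start at 0, with 1 point per library. Horizontal bars are group means and error bars SD (n = 4). HIST1H2BB is at most 10.8 CPM in cumulus and at least 11.9 CPM in granulosa libraries, while HIST2H2AA4/HIST1H2AK reaches its highest level, 9.0 CPM, in contralateral cumulus library 4.

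The pair HIST2H2AA4/HIST1H2AK, an H2A measurement, went the other way. It stood at 5.52, 5.56, 4.76 and 5.14 CPM in ipsilateral cumulus and 5.75, 4.94, 3.68 and 9.0 CPM in contralateral cumulus libraries. Granulosa libraries held 2.79, 6.03, 4.24 and 5.08 CPM on the ipsilateral and 1.88, 2.44, 2.54 and 4.46 CPM on the contralateral side. The cell types overlapped: only contralateral cumulus library 4 lay above all granulosa libraries, and 4 of 8 granulosa libraries lay below all cumulus libraries. Cumulus means were 5.25 ± 0.376 CPM on the ipsilateral and 5.84 ± 2.27 CPM on the contralateral side, and granulosa means 4.54 ± 1.37 and 2.83 ± 1.12 CPM on the same sides (SD, n = 4 each). In order of level contralateral cumulus came highest, then ipsilateral cumulus, ipsilateral granulosa and contralateral granulosa, and neighbours in that order overlapped. Ipsilateral cumulus and contralateral granulosa did not overlap.

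Its log2 difference between cumulus and granulosa cells was 0.64 ± 0.23 SE by edgeR's quasi-likelihood test (adjusted p = 0.0244), 1.56-fold higher in cumulus cells. That call depended on single libraries. Without contralateral cumulus library 4 the log2 difference was 0.50 (adjusted p = 0.0672), without contralateral granulosa library 1 it was 0.57 (adjusted p = 0.0528) and without contralateral granulosa library 2 it was 0.60 (adjusted p = 0.0501). With ipsilateral libraries alone it was 0.22 ± 0.28 (adjusted p = 0.548), and with contralateral libraries alone 1.07 ± 0.37 (adjusted p = 0.0373). Contralateral cumulus library 4, where the pair was highest, is also the library with 203 CPM of oocyte markers, and the part of these in the result was not tested. Without contralateral cumulus libraries 2 and 4 the value was 0.48 (adjusted p = 0.114).

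All 4 entries passed between the cell types, 2 higher and 2 lower in cumulus cells. The 2 higher entries are the repeated pair HIST2H2AA4/HIST1H2AK, a single measurement whose call depended on single libraries. Across all entries tested 60.2% passed, 29.9% as higher in cumulus and 30.3% as higher in granulosa cells. A called core histone entry is thus no rarity in this comparison. The cell types did not overlap for 28.0% of all entries tested, 13.1% with cumulus and 14.9% with granulosa cells higher, and among the 3 distinct measurements here only HIST1H2BB had this. The median log2 difference of all entries tested was 0.03.

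Since the entries moved in opposite directions, their ratio within a library was compared as well. This ratio of counts does not depend on library scaling. It was chosen after the values had been seen, and 9 such tests were made (3 ratios, each between the cell types and between the sides of each cell type). HIST1H2BB counts over HIST2H2AA4/HIST1H2AK counts ran from 0.820 to 2.17 in cumulus and from 2.68 to 17.4 in granulosa libraries. HIST1H2AC counts over those of the pair ran from 0.241 to 0.479 in cumulus and from 0.835 to 3.28 in granulosa libraries. In neither ratio did the cell types overlap.

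The mean log2 ratio of HIST1H2BB to the pair was 0.70 ± 0.46 in cumulus and 3.15 ± 1.10 in granulosa libraries (SD, n = 8 each), a difference of -2.46. For HIST1H2AC to the pair it was -1.48 ± 0.35 in cumulus and 0.65 ± 0.69 in granulosa libraries (SD, n = 8 each), a difference of -2.13. Each had an exact two-sided permutation p of 0.000155, the smallest that 8 against 8 libraries allow, and an adjusted p of 0.000699 over the 9 tests. HIST1H2BB to HIST1H2AC gave 2.17 ± 0.61 in cumulus and 2.50 ± 0.90 in granulosa libraries (SD, n = 8 each), and here the exact permutation p was 0.409 (adjusted p = 0.823). As the ratios were formed because opposite directions had been seen, these p-values and the lack of overlap restate that difference. They are no further evidence for it. How often ratios of other entries fail to overlap was not computed.

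**Figure D2:**
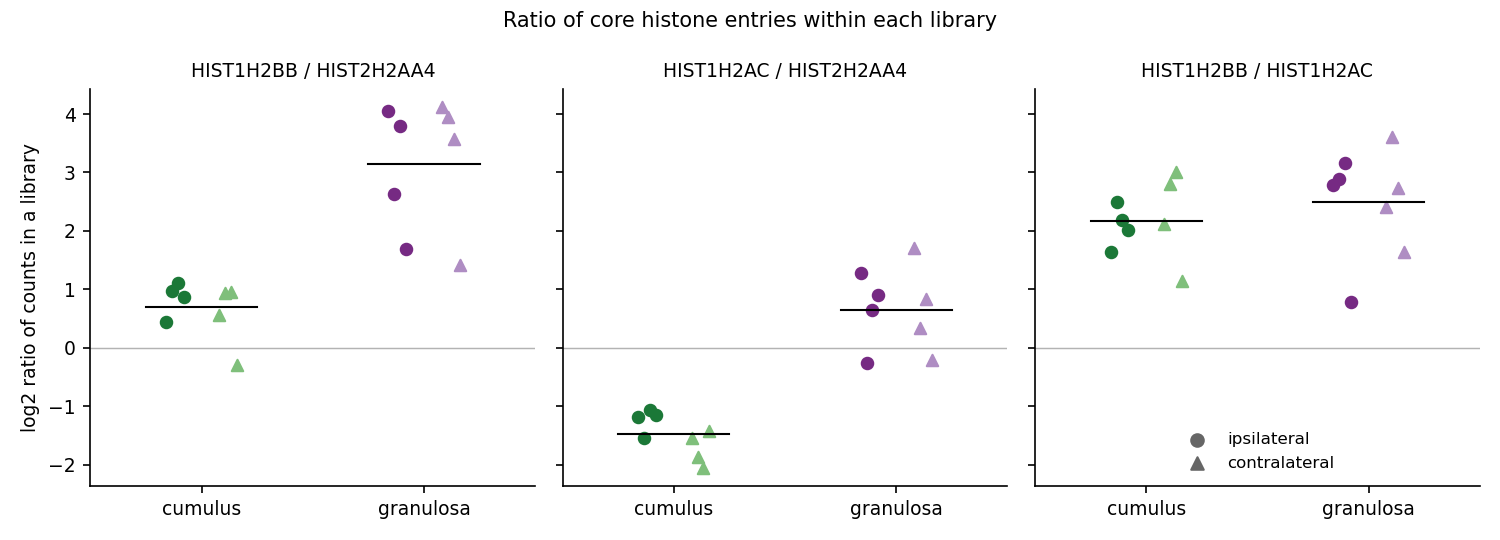
Log2 ratio of the counts of core histone entries within each library, cumulus left and granulosa right, with 1 point per library (circles ipsilateral, triangles contralateral) and a bar at the mean of the 8 libraries. Both ratios to HIST2H2AA4 (the same counts as HIST1H2AK) are lower in all cumulus than in all granulosa libraries, and the ratio of HIST1H2BB to HIST1H2AC overlaps.

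The series' title asks about closeness to the corpus luteum, which the side comparison addresses. In cumulus cells no entry passed the test between the sides. HIST1H2BB had a log2 difference, ipsilateral minus contralateral, of 0.21 ± 0.19 SE (95% interval from -0.21 to 0.63), and HIST1H2AC had 0.22 ± 0.41 (-0.67 to 1.12). The value of HIST1H2AC was 0.09, 0.0013 and 0.66 without contralateral cumulus library 2, 3 or 4. The pair HIST2H2AA4/HIST1H2AK had -0.17 ± 0.28 (-0.78 to 0.43), which turned to 0.12 without contralateral cumulus library 4. Adjusted p values by edgeR's quasi-likelihood test were 0.696, 0.870 and 0.851. For HIST1H2AC the ipsilateral libraries lay between 1.91 and 2.43 CPM and the contralateral ones between 0.887 and 3.36 CPM. The sides overlapped for all 4 entries, and did not overlap for 5.02% of all entries tested. None of the 4 entries passed by DESeq2 or had an unadjusted p under 0.05. Over all 16323 entries tested, edgeR called 0%, 1791 had an unadjusted p under 0.05, and DESeq2 called 120.

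In granulosa cells all 4 entries had higher ipsilateral means, and none passed. HIST1H2AC averaged 6.98 ± 1.86 CPM in ipsilateral and 4.40 ± 1.32 CPM in contralateral granulosa cells (SD, n = 4 each), a log2 difference of 0.65 ± 0.32 SE (95% interval from -0.05 to 1.35). For this entry 3 ipsilateral libraries lay above all contralateral ones, and the groups overlapped at 5.04 CPM in ipsilateral library 2 and 6.16 CPM in contralateral library 1. HIST2H2AA4/HIST1H2AK had 0.66 ± 0.38 (-0.18 to 1.5) and HIST1H2BB 0.49 ± 0.43 (-0.48 to 1.46). The value of HIST1H2BB was 0.23 without ipsilateral library 3 and 0.23 without contralateral library 4, and it was 0.75 without ipsilateral library 4. The adjusted p by edgeR's quasi-likelihood test was 0.9996 for each, with unadjusted p values of 0.0663, 0.111 and 0.287. The sides overlapped for all 4, against 2.04% of all entries where they did not. DESeq2 called none of them either. Over all 16411 entries tested, edgeR called 0%, 579 had an unadjusted p under 0.05, and DESeq2 called 1 entry. Among all entries 51.0% had a log2 difference above 0, and 3 distinct measurements above 0 are few to set against that.

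Whether the side difference itself differed between the cell types was tested in all 16 libraries. The difference, cumulus minus granulosa, was -0.26 ± 0.49 SE for HIST1H2BB, -0.42 ± 0.52 for HIST1H2AC and -0.82 ± 0.46 for HIST2H2AA4/HIST1H2AK (95% interval from -1.80 to 0.15 for the last). Adjusted p values by edgeR's quasi-likelihood test were 0.943, 0.890 and 0.704. None of the 4 had an unadjusted p under 0.05 or passed by DESeq2. With 1 library left out at a time these values ran from -0.52 to 0.00083 for HIST1H2BB, from -0.64 to 0.014 for HIST1H2AC and from -1.11 to -0.53 for the pair. The values nearest to or above 0 were those without ipsilateral granulosa library 3 for HIST1H2BB and without contralateral cumulus library 4 for HIST1H2AC and the pair. Of 18038 entries tested, edgeR called 0% here, 1358 had an unadjusted p under 0.05 and DESeq2 called 1.

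**Figure D3:**
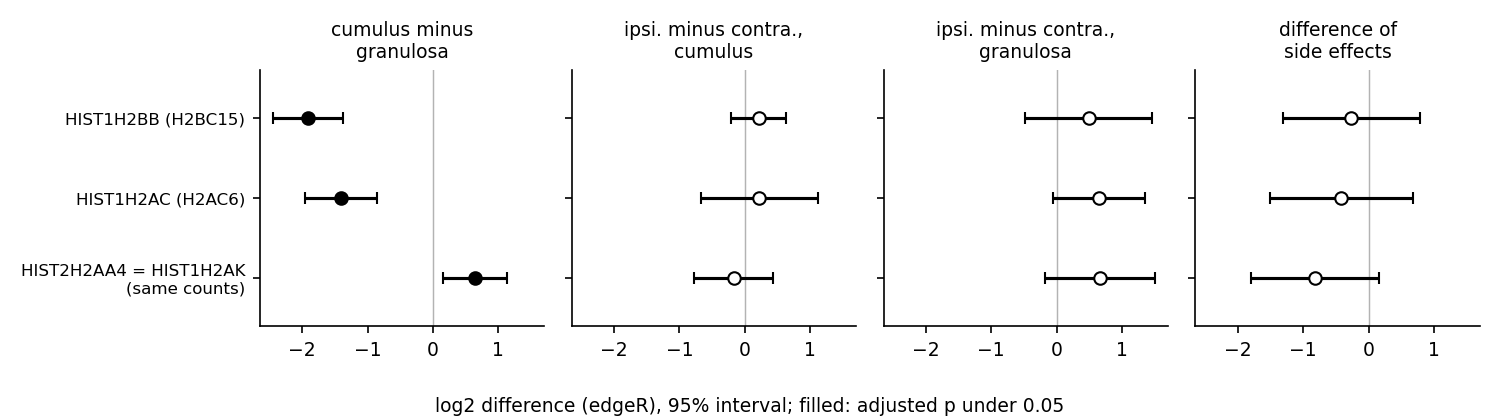
Log2 differences of the 3 distinct core histone entries in the 4 comparisons, from edgeR, with 95% intervals. Filled points passed at an adjusted p under 0.05: the entries differ between the cell types, with HIST1H2BB at -1.91, HIST1H2AC at -1.41 and HIST2H2AA4/HIST1H2AK at 0.64, and every interval of a side comparison includes 0.

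The table held 46 further entries of the replication-dependent core histone clusters, of which 2 had no counts and 20 were tested between the cell types. By edgeR's quasi-likelihood test 3 were higher in cumulus cells, 4 were higher in granulosa cells and 13 did not pass, and DESeq2 gave 3 and 4 among these 20. Their median log2 difference was 0.06 with edgeR, against 0.03 over all entries tested. Over all entries tested 29.9% passed as higher in cumulus and 30.3% as higher in granulosa cells, so these entries were not called more often. By histone, the calls were 1 higher and 3 lower in cumulus cells of 9 H2B entries tested, 2 higher and 1 lower of 6 H4 entries, and 0 of 3 H2A and 0 of 2 H3 entries. Among the H2A entries tested, HIST1H2AC and the repeated pair HIST2H2AA4/HIST1H2AK thus passed. Only 3 of the 13 other H2A entries were tested, so this does not set them apart from the rest. DESeq2 also called HIST1H2BJ, an H2B entry that edgeR's filter left out and that is named after its value was seen, as lower in cumulus cells (log2 difference -1.76, DESeq2 adjusted p = 0.0312).

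Lower in cumulus cells were LOC528329, which the reference names H4C13 and which encodes histone H4 (log2 difference -1.69 ± 0.23 SE), the H2B entry HIST2H2BE (H2BC21, -0.64 ± 0.12) and LOC104975676 (H2BC16, -1.34 ± 0.30), also H2B. The fourth was LOC787269 (H2BC4, -1.78 ± 0.43), the neighbour of H2AC6, whose mean over 8 libraries was 0.492 ± 0.277 CPM (SD) for cumulus against 1.78 ± 0.999 CPM for granulosa. It is named here after its values were seen. Higher in cumulus cells were the H4 entries LOC617875 (H4C4, 0.76 ± 0.25) and LOC516742 (H4C14, 0.64 ± 0.23) and the H2B entry HIST2H2BF (2.14 ± 0.87). HIST2H2BF held 134 of its 195 cumulus counts in contralateral library 4, where it was highest. Without that library it had a log2 difference of 1.24 (adjusted p = 0.210) and H4C14 one of 0.50 (adjusted p = 0.0640), so that 1 entry remained higher and 4 lower in cumulus cells. Without contralateral cumulus libraries 2 and 4 the numbers were 1 and 5. H4C14 also missed the threshold without contralateral granulosa library 1 (0.59, adjusted p = 0.0504) or 2 (0.57, adjusted p = 0.0549), and HIST2H2BF without any 1 of 8 further libraries, with values from 1.91 to 2.11. The 4 lower entries passed with each library left out. All these values come from edgeR's quasi-likelihood test.

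**Figure D4:**
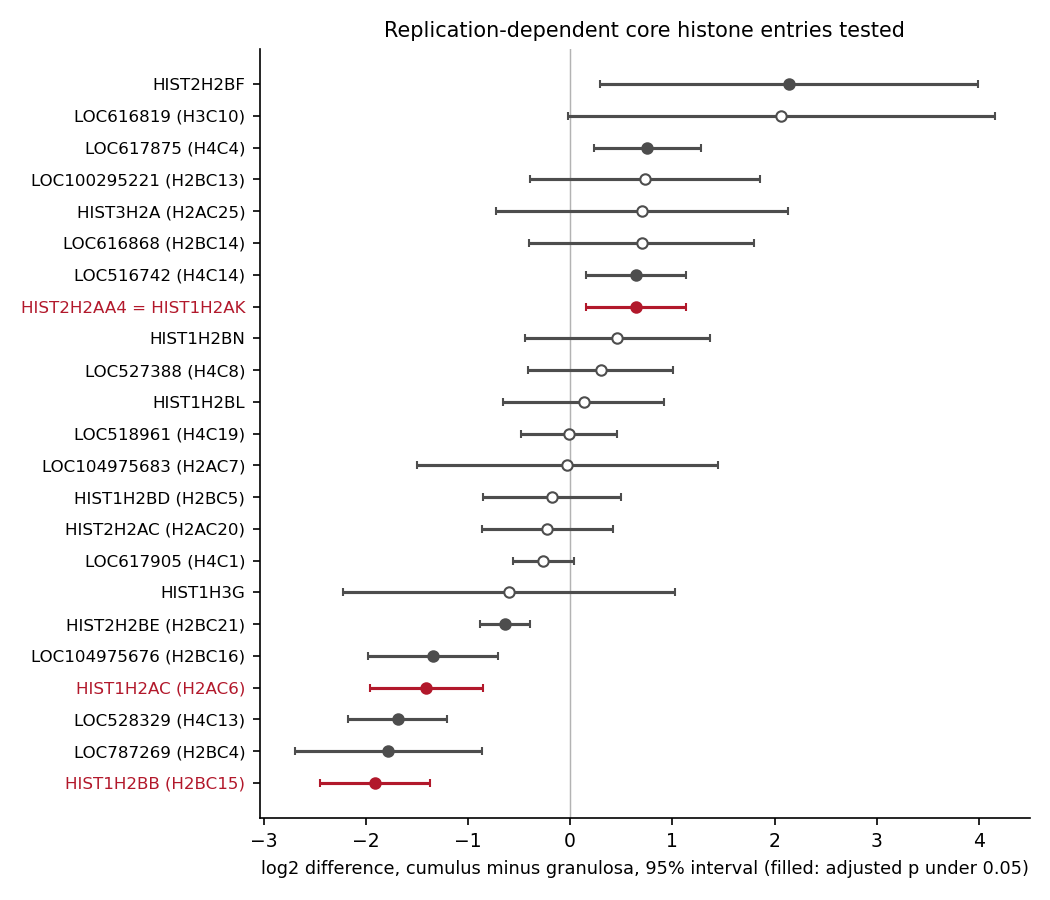
Log2 difference, cumulus minus granulosa, of each replication-dependent core histone entry tested, with 95% intervals from edgeR; filled points passed at an adjusted p under 0.05 and HIST1H2AC, HIST1H2BB and HIST2H2AA4 (the same counts as HIST1H2AK) are in red. Calls lie on both sides of 0, from -1.91 for HIST1H2BB to 2.14 for HIST2H2BF.

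By side, none of these further entries passed edgeR's or DESeq2's test, and none had an unadjusted p under 0.05 with edgeR. Ipsilateral values were higher for 14 of 17 entries tested in cumulus cells, with a median log2 difference of 0.25, and for 13 of 15 in granulosa cells, with a median of 0.42. Over all entries the median was -0.01 in cumulus and 0.01 in granulosa cells, with 48.2% and 51.0% above 0. Many of these entries are near-identical copies or neighbours of one another and may share reads, so they are not independent.

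Other histone genes give the setting, beside the 60.2% of all entries tested that passed between the cell types. Linker histones, which bind the DNA between nucleosomes, had 2 of 7 tested entries higher in cumulus cells, among them H1FX (1.21 ± 0.34 SE), and 1 lower, HIST1H1C (H1-2, -1.38 ± 0.36). Replacement core histones, which are made outside S phase, had 2 of 9 higher, the H3.3 gene H3F3A (0.34 ± 0.09) and the H2A.Z gene H2AFV (H2AZ2, 0.25 ± 0.07). Among them 3 were lower in cumulus cells: the H2A.Z gene H2AFZ (H2AZ1, -0.71 ± 0.08), the macroH2A gene H2AFY2 (MACROH2A2, -1.13 ± 0.16) and the H3.3 gene H3F3B (-0.38 ± 0.09). DESeq2 gave 2 and 4 for this list. Neither list had a call by side with edgeR. DESeq2 called 1 linker entry, H1FOO, which edgeR's filter left out and which is also one of the oocyte markers (log2 difference -6.11, ipsilateral minus contralateral cumulus, DESeq2 adjusted p = 0.0257). At an unadjusted p under 0.05 there were 0 linker and 2 replacement entries in cumulus cells, and 2 linker and 0 replacement entries in granulosa cells.

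A list of genes that process histone mRNA or act at histone loci held 24 symbols, with some genes under old and new names. By name, 3 genes had an entry. All 3 passed between the cell types, as did 60.2% of all entries tested. PAPD7 (TENT4A), a poly(A) polymerase of the non-canonical kind, was higher in cumulus cells (0.83 ± 0.25 SE), as was ZCCHC11 (0.36 ± 0.09). ZCCHC6 was lower (-0.55 ± 0.07). ZCCHC11 (TUT4) and ZCCHC6 (TUT7) add uridines to RNA ends, in human cells also to histone mRNA. None of the 3 passed by side, at an adjusted or unadjusted p, with edgeR, nor by DESeq2. The histone chaperone list had 1 entry of 17, LOC101906870 (HIRA, -0.04 ± 0.28 between the cell types), which passed in no comparison with edgeR. Its side difference in cumulus cells was 0.75 ± 0.24 (unadjusted p = 0.00891, adjusted p = 0.404 by edgeR's quasi-likelihood test). None of the 40 S phase and proliferation genes had an entry by name, so no measure of cycling stands beside the histone values.

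For each distinct entry the named entries with the most similar profile were found, by the root mean square difference of log2(CPM + 0.5), centred on its mean over the 16 libraries. There were 808 candidates. LOC528329 (H4C13) lay nearest to HIST1H2BB, at 0.14, where the median candidate lay at 1.19. Its counts were 1.62 to 2.37 times those of HIST1H2BB in every library. The next were C29H11orf80 (0.38), C5H12orf75 (0.43), LOC104975676 (H2BC16, 0.44), the immediate neighbour of H2BC15 in the reference, and the mitochondrial ribosomal protein gene MRPL14 (0.46). H4C13 and H2BC16 do not overlap H2BC15 in the reference, and whether they do in the annotation the submitters used was not tested.

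LOC516742 (H4C14) lay nearest to HIST2H2AA4/HIST1H2AK, at 0.14 against a median of 0.68, with 2.23 to 3.22 times its counts in every library. It was highest in contralateral cumulus library 4, at 22.8 CPM, as the pair was. The next were HMGN2, a nucleosome-binding protein gene (0.31), WDR34 (DYNC2I2, 0.33), EID3 (0.34) and C5H12orf45 (NOPCHAP1, 0.34). For HIST1H2AC no named entry came as close. MYO1H, a myosin gene, lay at 0.40, LOC100126544 (SMIM29) at 0.41, the linker histone gene HIST1H1C (H1-2) at 0.42, MRPL14 at 0.44 and SSFA2 (ITPRID2) at 0.44, against a median of 0.96. These distances describe the same 16 libraries, which the cell types divide, and carry no test.

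**Figure D5:**
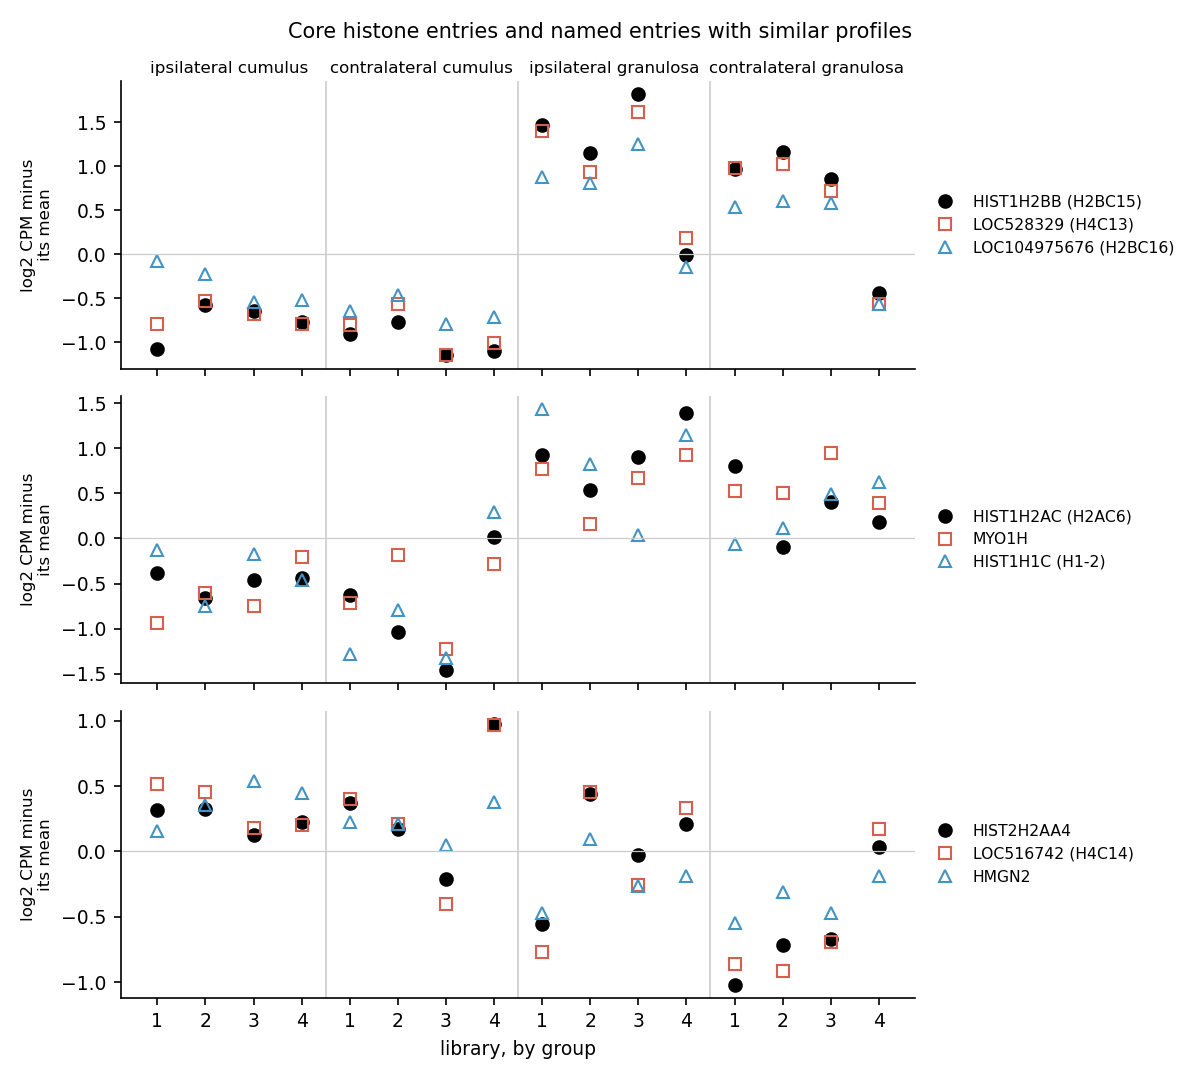
Centred log2(CPM + 0.5) of each distinct core histone entry (black) and of 2 of its 5 nearest named entries (open symbols), 1 point per library. Cumulus groups are left of granulosa groups and ipsilateral left of contralateral within each. The 2 drawn are not always the nearest. Nearer entries left out were C29H11orf80 and C5H12orf75 for HIST1H2BB, and LOC100126544 (SMIM29) for HIST1H2AC, none of them a histone gene. MYO1H and HMGN2, which are drawn, are not histone genes either. LOC528329 (H4C13) lies within 0.28 of HIST1H2BB and LOC516742 (H4C14) within 0.23 of HIST2H2AA4/HIST1H2AK in every library.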

How the data were processed

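Pools of RNA from cattle follicular cells were measured, 16 in 4 groups of 4. Per the labels' protocols, SMART-Seq HT and Nextera XT kits were used and reads were single-end, of 75 bp; neither kit marks strand. Per the submitters' processing notes, FastQC, Trimmomatic, STAR and DESeq2 were run, with no versions named. Genome build, annotation and counter: not given in the sources used here. Raw read counts per gene entry were deposited by the authors, and each column was matched to a sample by title. Entries with an Ensembl ID were tested but could not be named, and RefSeq (ARS-UCD2.0) named 1105 LOC entries.

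Counts were tested with edgeR 4.0.16 (limma 3.58.1, R 4.3.3): filterByExpr (minimum count 10, total 15), TMM factors, robust dispersions, the quasi-likelihood F-test and Benjamini-Hochberg adjustment over all entries tested, with calls at an adjusted p under 0.05. SE is the size of the log2 difference divided by the square root of F. Sides were compared within the 8 libraries of each cell type, all else in 16 libraries. Within-library ratios used exact two-sided permutation tests (SciPy 1.17.1). Scripts were tested on simulated data. Alternatives were DESeq2 1.42.0, other size factors, no filter, exact repeats left out, other sets of libraries and each library left out. Replicates of a group had a chi-square per gene from 12.9 to 78.7, where 1 library sequenced again would give about 1.

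The 4 entries, the lists and the rule for named genes (the 4 entries, up to 3 called entries a direction per list by p, and the 5 nearest profiles) were chosen with earlier results of these data known. No sequence of these genes is shown, as the reference used here holds names only. One linker histone entry that the rule for named genes selects is not reported here.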

Additional observations from a re-analysis of the deposited data

How the results depend on the processing

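Over 24 alternatives, HIST1H2BB and HIST1H2AC kept their direction and stayed past the threshold between the cell types. HIST2H2AA4 and HIST1H2AK, each with a log2 difference of 0.64, kept their direction but did not pass in several: 0.62 (adjusted p = 0.0509) without the filter on low counts, 0.48 without contralateral cumulus libraries 2 and 4, 0.46 without these and contralateral granulosa library 3 (chosen, like the ratios, after seeing the data), and 0.22 with ipsilateral libraries alone. Leaving out each library gave 0.50 to 0.79 for both. In cumulus cells their side difference of -0.17 ran from -0.33 to 0.12 when each library was left out, and was 0.14 without contralateral cumulus libraries 2 and 4. The difference of side effects ran from -0.64 to 0.014 for HIST1H2AC and from -0.52 to 0.00083 for HIST1H2BB. The cause was not tested.

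Genes called by side went from 0 to 120 in cumulus cells, 1 in granulosa cells and 1 for the difference of side effects by DESeq2, and to 30 in cumulus cells without contralateral cumulus libraries 2 and 4. With each library left out they stayed at 0. Between the cell types that count ran from 10582 to 11055, and it was 7319 with ipsilateral and 8048 with contralateral libraries alone, where fewer libraries were tested. Log2 ratios between the cell types ran from -2.70 to -2.32 (HIST1H2BB to HIST2H2AA4), from -2.26 to -1.98 (HIST1H2AC to HIST2H2AA4) and from -0.57 to -0.17 (HIST1H2BB to HIST1H2AC) when each library was left out. By side the ratios ran from -0.84 to 0.23, from -0.32 to 0.32 and from -0.52 to 0.34 in granulosa cells, and from 0.03 to 0.45, from 0.38 to 0.59 and from -0.56 to 0.067 in cumulus cells, in that order of ratios. No paired analysis was possible because the labels give no replicate numbers within groups. With exact repeats left out HIST1H2AK had no value. HIST1H2AC rests on as few as 14 counts in a library, which limits its precision.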

Other observations

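Of the 20 further core histone entries tested, 7 were highest among the cumulus libraries in contralateral library 4, as were HIST1H2AC and HIST2H2AA4/HIST1H2AK. HIST2H2BF stood there at 7.49 CPM, 14.9 times the median of the other cumulus libraries, and HIST1H3G at 1.01 CPM, 5.52 times that median. HIST1H2BB was highest in ipsilateral cumulus library 2, at 10.8 CPM. Ipsilateral cumulus library 1 was highest for 8 of the 20, among them LOC616819 (H3C10), at 2.43 CPM, 12.8 times the median of the others. The same count over all entries of the table was not made, so these numbers set no library apart.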
